A study of Mus musculus with 9 samples.

Results

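Cytokine receptor chains set which soluble signals a CD8 T cell can receive, and 10 of them were followed here in 3 CD8 T-cell clones of the mouse: Il18r1 and Il18rap (receptor of IL-18), Il12rb1 and Il12rb2 (receptor of IL-12), Ifngr1 and Ifngr2 (receptor of interferon-gamma), Ifnar1 and Ifnar2 (receptor of type I interferons), Il6ra (receptor of IL-6) and Il10ra (receptor of IL-10). They were chosen by gene symbol, and all 10 were found among the 24060 genes of the expression table. The unit is TPM (transcripts per 1000000 transcripts), which is corrected for gene length and summed to 1000000 or 1000001 TPM in every sample, so levels of different genes can be set side by side. Of the 10 chains, 9 had more than 1 TPM in at least 1 sample and were tested along with 12115 such genes in all, while Il12rb1 did not pass this filter. Clones were compared with limma, a linear model of log2(TPM + 1) over all tested genes, and a gene is called where its adjusted p was under 0.01.

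The cells came from the transnuclear mouse lines Rop7-I, Rop7-II and Rop7-III, each made by somatic cell nuclear transfer from 1 CD8 T cell and therefore carrying 1 rearranged T-cell receptor (TCR), with 3 biological replicates per line. All 3 TCRs bind the same peptide of the Rop7 protein of Toxoplasma gondii on the class I molecule H-2 Ld, and the study asked how clones of 1 specificity differ before they meet antigen. Splenocytes of all lines were incubated overnight in IL-2 at 10 ng per ml with no peptide. Cells were then sorted for CD3, CD8 and tetramer binding to a purity of 90 to 95%. They gave 200 ng of RNA for sequencing that did not keep strand. The labels call the samples biological replicates without naming animals, so the p-values measure the spread between these samples. By the study's account the mice were on a BALB/c background and homozygous for the rearranged TCR genes. Each line is 1 clone, so an effect of its TCR cannot be told apart from any other difference between the mice of the lines.

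Each of these receptors works as a pair. One chain binds the cytokine with most of the specificity and the other brings in signalling or raises affinity. IL-18 signals through the MyD88 adaptor and the IRAK kinases, whereas the receptors of IL-12, interferons, IL-6 and IL-10 use JAK kinases and STAT factors, among them STAT4 for IL-12 and STAT3 for IL-6 and IL-10. In CD8 T cells, IL-12 and IL-18 together are known to drive interferon-gamma release without TCR ligation, and high levels of the IL-18 receptor are known from memory-type cells.

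Sorted CD8 T cells can hold other cells. The 10 markers of CD8 T cells summed to 9727 to 10160 TPM in Rop7-II, above the other 6 samples (9177 to 9476 TPM). Cd8a was at 785 to 839 TPM in Rop7-II, at 665 to 722 TPM in Rop7-I and at 606 to 637 TPM in Rop7-III, and was called lower against Rop7-II in Rop7-III (-0.39, limma adjusted p = 2.05e-04) and in Rop7-I (-0.22, limma adjusted p = 0.00640). Cd2 went the other way, higher than in Rop7-II in Rop7-III (0.54, limma adjusted p = 1.52e-05) and in Rop7-I (0.39, limma adjusted p = 1.32e-04). Of the 10 markers, 3 were called lower and 1 higher in each of these pairs, beside 12.3% and 7.53% of all tested genes called. Rop7-II replicate 1 had the highest value of all samples for 14 of 14 B-cell markers and for 16 of 16 myeloid markers. Its B-cell markers summed to 995.6 TPM against 100.9 to 445.6 TPM in the other samples, and its myeloid markers to 698.3 TPM against 41.84 to 252.9 TPM, the next highest being Rop7-II replicate 3. All 14 myeloid markers tested were lower on the log2 scale in Rop7-III (median -1.51) and in Rop7-I (median -0.73) than in Rop7-II. Replicates did not overlap for 7 and 3 of them, beside 40.7% and 35% of all tested genes, and 0 were called. Without Rop7-II replicate 1, 12 were tested, the medians were -0.85 and -0.11, and 0 were called. The clones also lay apart in B-cell markers, which summed to 190.8 to 445.6 TPM in Rop7-I and to 100.9 to 167.5 TPM in Rop7-III with no overlap. All 14 B-cell markers had lower means in Rop7-III than in Rop7-I (median -1.38 on the log2 scale). Of them, 11 had no overlap, beside 38.2% of all tested genes. With all 9 samples limma called 0, with 0 at an unadjusted p under 0.05 and a lowest adjusted p of 0.204. Without Rop7-II replicate 1, Rop7-III against Rop7-I had 2 of the 14 called lower and 0 higher, beside 6.97% of all tested genes called. In that fit Rop7-I against Rop7-II had 4 called higher and 0 lower (median 1.49), beside 7.34%. Rop7-III against Rop7-II had 1 called higher and 0 lower, beside 11%. Erythroid markers summed to 2496 TPM in Rop7-I replicate 2 and to between 28.09 and 493.9 TPM elsewhere. Their sums in Rop7-II (28.09 to 203.4 TPM) lay below those in Rop7-I (412.4 to 2496 TPM). NK-cell markers summed to between 25.51 and 38.74 TPM with no single sample apart. Their sums in Rop7-III (25.51 to 26.85 TPM) lay below those in Rop7-II (33.14 to 38.74 TPM). Limma called 0 erythroid markers between Rop7-I and Rop7-II and 0 NK-cell markers between Rop7-III and Rop7-II. Values without Rop7-II replicate 1 stand beside the chains whose call changed without it or whose difference moved most. Genes of the other lists that became called without it are given as counts. In bulk RNA, fewer cells that express a gene and less RNA per cell cannot be told apart.

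**Figure D1:**
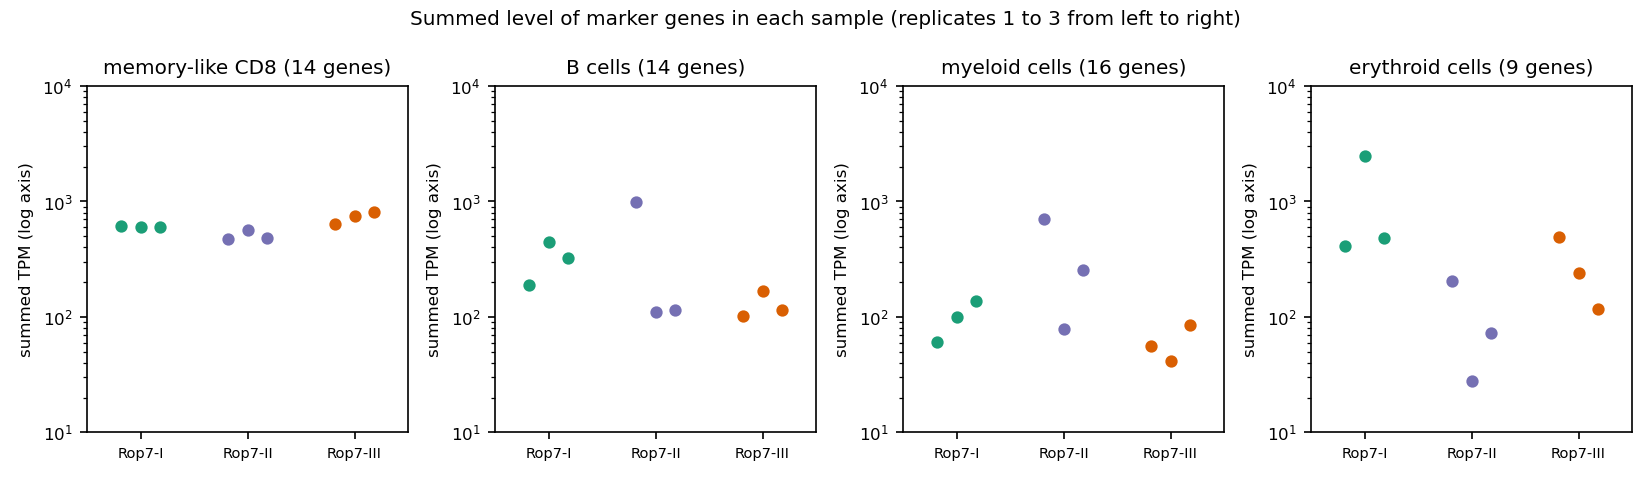
Summed TPM, on a log axis, of the genes that mark memory-like CD8 T cells, B cells, myeloid cells and erythroid cells in each of the 9 samples, with replicates 1 to 3 of a clone from left to right. Rop7-II replicate 1 lies highest for B-cell markers (995.6 TPM) and myeloid markers (698.3 TPM), and Rop7-I replicate 2 highest for erythroid markers (2496 TPM).

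Promoter sequences were matched by symbol in RefSeq on GRCm38.p6 for 8 of the 10 chains, not for Il12rb1 and Il10ra. The 4 shown belong to both chains of the interferon-gamma receptor, of which 1 was called between clones and 1 was not, and to Il18rap and Il6ra, which were also called. Each runs 5′ to 3′ on the gene's own strand, from 250 bases before to 50 bases after the transcription start, in lower case. Capitals mark matches, on either strand, to the 5 motifs searched, which were GAS (TTCNNNGAA, the STAT site), ISRE (the interferon response element, read as GAAA, 2 bases of any kind and GAAA), T-box (GGTGTGA), RUNX (TGTGGT) and AP-1 (TGANTCA).
Ifngr1, chr10:19591699-19591998, plus strand: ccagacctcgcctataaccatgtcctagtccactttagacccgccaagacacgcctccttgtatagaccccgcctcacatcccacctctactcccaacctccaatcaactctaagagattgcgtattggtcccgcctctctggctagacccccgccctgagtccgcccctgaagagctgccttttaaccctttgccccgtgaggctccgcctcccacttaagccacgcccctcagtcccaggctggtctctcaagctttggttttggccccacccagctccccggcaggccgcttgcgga
Ifngr2, chr16:91546809-91547108, plus strand: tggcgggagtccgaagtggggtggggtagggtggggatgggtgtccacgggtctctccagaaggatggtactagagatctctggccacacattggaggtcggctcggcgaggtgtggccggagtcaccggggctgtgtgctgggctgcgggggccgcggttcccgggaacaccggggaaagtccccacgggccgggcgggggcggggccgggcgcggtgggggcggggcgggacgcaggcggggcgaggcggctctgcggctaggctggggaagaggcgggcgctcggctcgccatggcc
Il18rap, chr1:40515112-40515411, plus strand: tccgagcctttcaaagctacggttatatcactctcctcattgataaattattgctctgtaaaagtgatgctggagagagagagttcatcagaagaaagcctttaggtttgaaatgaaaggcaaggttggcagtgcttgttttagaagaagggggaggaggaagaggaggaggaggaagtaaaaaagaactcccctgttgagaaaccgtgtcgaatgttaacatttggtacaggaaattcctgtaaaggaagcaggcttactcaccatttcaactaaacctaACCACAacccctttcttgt
Il6ra, chr3:89913147-89913446, minus strand: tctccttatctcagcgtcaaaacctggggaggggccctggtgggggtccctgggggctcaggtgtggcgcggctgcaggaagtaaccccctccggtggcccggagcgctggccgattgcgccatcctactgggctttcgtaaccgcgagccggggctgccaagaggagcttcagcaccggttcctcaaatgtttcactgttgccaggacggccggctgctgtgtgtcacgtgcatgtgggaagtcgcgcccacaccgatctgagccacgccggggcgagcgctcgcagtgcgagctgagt

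The Ifngr1, Ifngr2 and Il6ra windows held none of these letters, and the Il18rap window held 1 RUNX match that starts 31 bases after the transcription start. Among the other matched chains, single GAS matches lay in the windows of Il12rb2, Ifnar1 and Ifnar2, and of the 3 listed start sites of Il18r1 the third had 2 of them and the second 1 RUNX match. Over all 32851 promoter windows of this length, GAS letters occurred in 8.3%, ISRE in 3.44%, T-box in 3.98%, RUNX in 16.8% and AP-1 in 7.81%. The windows differ in base composition. That of Ifngr2 was 74.3% G or C with 31 CG pairs, that of Ifngr1 60.3% with 14, that of Il6ra 66% with 25 and that of Il18rap 42.3% with 4, where the median of all promoters was 52.7% with 7 pairs.

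The chains ranged over more than 2 orders of magnitude in level. Averaged over the 9 samples, Ifngr1 was at 289 TPM and Il6ra at 217 TPM, above 96% and 94.3% of the tested genes. Ifnar1 (107 TPM), Ifngr2 (74.3 TPM), Il10ra (66.2 TPM), Il18r1 (42.7 TPM) and Ifnar2 (30.5 TPM) followed. Il18rap (1.76 TPM), Il12rb2 (1.72 TPM) and Il12rb1 (0.494 TPM) were near the bottom, and only 11.6%, 11.5% and 1.83% of tested genes lay below them. The cells, kept overnight in IL-2 with no peptide, thus held abundant transcripts of Ifngr1 and Il6ra. They held few for the IL-12 receptor and the accessory chain of the IL-18 receptor. Of the interferon receptor chains, Ifnar2 was the lowest, above 53.3% of tested genes. Ranges over the 9 samples did not overlap between Il6ra and Ifnar1, between Ifnar1 and Ifngr2, between Ifnar2 and Il18rap or between Il12rb2 and Il12rb1. All other neighbours in this order overlapped, among them Ifngr1 (156.68 to 397.91 TPM) with Il6ra (155.56 to 264.67 TPM) and Il18rap (0.36 to 3.96 TPM) with Il12rb2 (1.24 to 2.18 TPM). These ranges mix the clones, so they do not settle the order within a clone. Ifngr1 lay above Il6ra with no overlap in Rop7-I (332.51 to 397.91 against 207.07 to 217.27 TPM) and in Rop7-III (312.52 to 366.03 against 250.66 to 264.67 TPM). In Rop7-II the 2 genes overlapped.

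**Figure D2:**
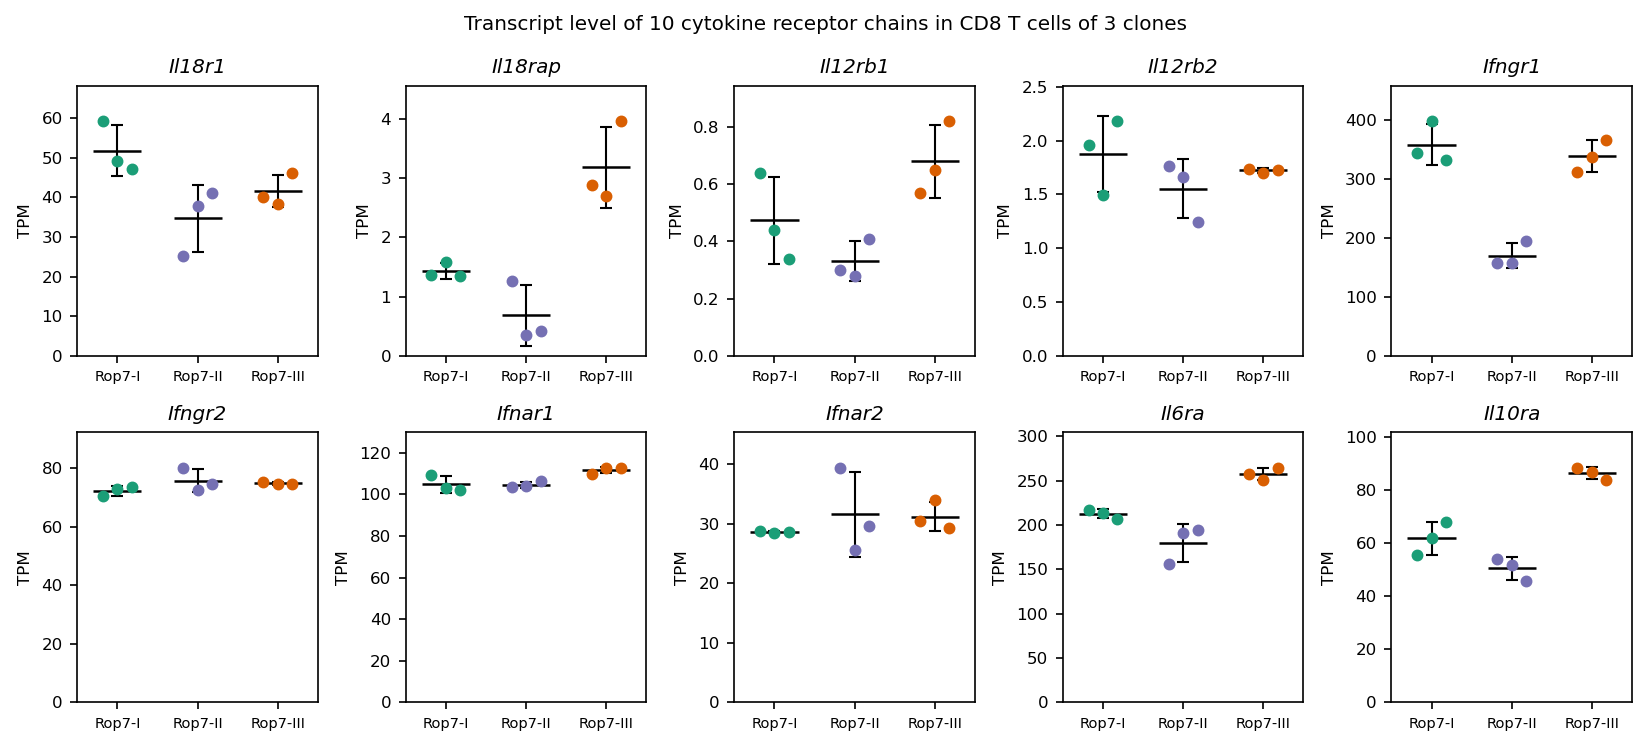
TPM of each of the 10 receptor chains (linear axes from 0) in the 3 replicates of Rop7-I, Rop7-II and Rop7-III, with the bar at the mean and the whiskers at 1 SD. Ifngr1 is lowest in Rop7-II (157 to 194 TPM), Il10ra and Il6ra are highest in Rop7-III (83.9 to 88.4 TPM and 251 to 265 TPM), and Ifngr2 and Ifnar1 lie close together in all clones.

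In the interferon-gamma receptor, the ligand-binding chain was lower in Rop7-II than in both other clones, and its partner was called in no pair. Ifngr1 (chr10:19591949-19610229, GRCm38, plus strand) encodes the chain that binds interferon-gamma. It stood at 344.26, 397.91 and 332.51 TPM in Rop7-I, at 157.89, 156.68 and 194.43 TPM in Rop7-II and at 312.52, 337.23 and 366.03 TPM in Rop7-III. All 3 Rop7-II samples were below all 6 samples of the other clones, and Rop7-I and Rop7-III overlapped. The mean was 170 ± 21.5 TPM in Rop7-II, 358 ± 34.9 TPM in Rop7-I, and 339 ± 26.8 TPM in the Rop7-III samples (SD, n = 3 each). On the log2(TPM + 1) scale Ifngr1 was higher than in Rop7-II by 1.08 in Rop7-I (SE 0.10, limma adjusted p = 1.42e-04) and by 1.00 in Rop7-III (SE 0.10, limma adjusted p = 1.38e-04), which are ratios of mean TPM of 2.11 and 2.00. These 2 comparisons share the Rop7-II samples. Rop7-III and Rop7-I differed by -0.08 with a 95% interval from -0.30 to 0.14 (limma adjusted p = 0.644). Without Rop7-II replicate 1 the differences from Rop7-II were 1.03 for Rop7-I and 0.95 for Rop7-III, both still called. In limma's F test across the 3 clones, Ifngr1 had an adjusted p of 1.13e-04, the smallest of the 9 tested chains.

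Ifngr2 (chr16:91547072-91565623, plus strand) encodes the signalling partner. Its values were 70.33, 72.84 and 73.53 TPM for Rop7-I, 80.14, 72.45 and 74.71 TPM in Rop7-II and 75.38, 74.70 and 74.43 TPM in Rop7-III. The highest was Rop7-II replicate 1, and Rop7-II overlapped both other clones. The difference of Rop7-III from Rop7-II was -0.02 on the log2 scale with a 95% interval from -0.11 to 0.08, and that of Rop7-I from Rop7-II was -0.07 with an interval from -0.16 to 0.03, so differences of the size seen for Ifngr1 lie outside both intervals. None of the 3 pairs was called (limma adjusted p from 0.301 to 0.798). The ratio of Ifngr1 to Ifngr2 was accordingly 1.97 to 2.60 in Rop7-II, 4.52 to 5.46 in Rop7-I and 4.15 to 4.92 in Rop7-III. Ligand-binding transcripts thus exceeded partner transcripts in every sample, with no overlap between Rop7-II and the other clones.

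Il10ra (chr9:45253837-45269149, minus strand) encodes the chain that binds IL-10, a cytokine known for restraining inflammation. It was at 55.53, 61.79 and 67.98 TPM in Rop7-I, at 53.89, 51.84 and 45.62 TPM in Rop7-II and at 88.37, 86.77 and 83.90 TPM in Rop7-III. The 3 clones did not overlap, with Rop7-III highest and Rop7-II lowest. Rop7-III was higher than Rop7-II by 0.77 on the log2 scale (SE 0.08, limma adjusted p = 1.82e-04) and higher than Rop7-I by 0.48 (SE 0.08, limma adjusted p = 0.00473), while Rop7-I against Rop7-II gave 0.29 (limma adjusted p = 0.0348) and was not called. The call against Rop7-II held in each of the 9 fits that left out 1 sample. The call against Rop7-I was lost in 5 of the 9, without Rop7-I replicate 1 or 2 or any 1 of the Rop7-III replicates (limma adjusted p from 0.0165 to 0.0232). An annotated gene model on the same locus, Mir7086, is also in the table, and without strand its reads cannot be told apart from those of Il10ra.

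Il6ra (chr3:89864059-89913196, minus strand) encodes the IL-6 binding chain. Its level was 217.27, 213.49 and 207.07 TPM for Rop7-I, 155.56, 190.49 and 194.70 TPM in Rop7-II and 257.73, 250.66 and 264.67 TPM in Rop7-III. The clones did not overlap and kept the order seen for Il10ra. Rop7-III was higher than Rop7-II by 0.52 (SE 0.07, limma adjusted p = 0.00112). The 0.28 between Rop7-III and Rop7-I (limma adjusted p = 0.0393) and the 0.24 between Rop7-I and Rop7-II (limma adjusted p = 0.0491) were not called. Rop7-II replicate 1 was the lowest of all samples, and without it the difference of Rop7-III from Rop7-II was 0.42 and still called, and that from Rop7-I became called (limma adjusted p = 7.43e-04, same 0.28).

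The shared partners of these chains differed by smaller amounts. Il10rb, the second chain of the IL-10 receptor, was at 67.31, 70.86 and 70.19 TPM in Rop7-I, at 73.02, 68.79 and 67.84 TPM in Rop7-II and at 78.58, 79.72 and 82.53 TPM in Rop7-III. Il6st, the signalling chain gp130 used by IL-6 and related cytokines, was at 182.87, 172.48 and 181.15 TPM in Rop7-I, at 153.84, 184.52 and 178.94 TPM in Rop7-II and at 206.69, 208.02 and 211.84 TPM in Rop7-III. For both, all 3 Rop7-III samples were above the other 6, which overlapped among themselves. The difference of Rop7-III from Rop7-II was 0.20 for Il10rb (limma adjusted p = 0.00683) and 0.28 for Il6st (limma adjusted p = 0.00953), and each call was lost in 7 of the 9 fits that left out 1 sample. Il10rb kept its call only without Rop7-I replicate 1 or Rop7-II replicate 1, and Il6st only without Rop7-II replicate 1 or 2. The ratio of Il10ra to Il10rb was 0.825 to 0.969 in Rop7-I, 0.673 to 0.754 in Rop7-II and 1.02 to 1.13 in Rop7-III. Il10ra transcripts thus exceeded those of their partner in Rop7-III samples and not in the other 6. The ratio of Il6ra to Il6st lay between 1.01 and 1.25 in the 9 samples.

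**Figure D3:**
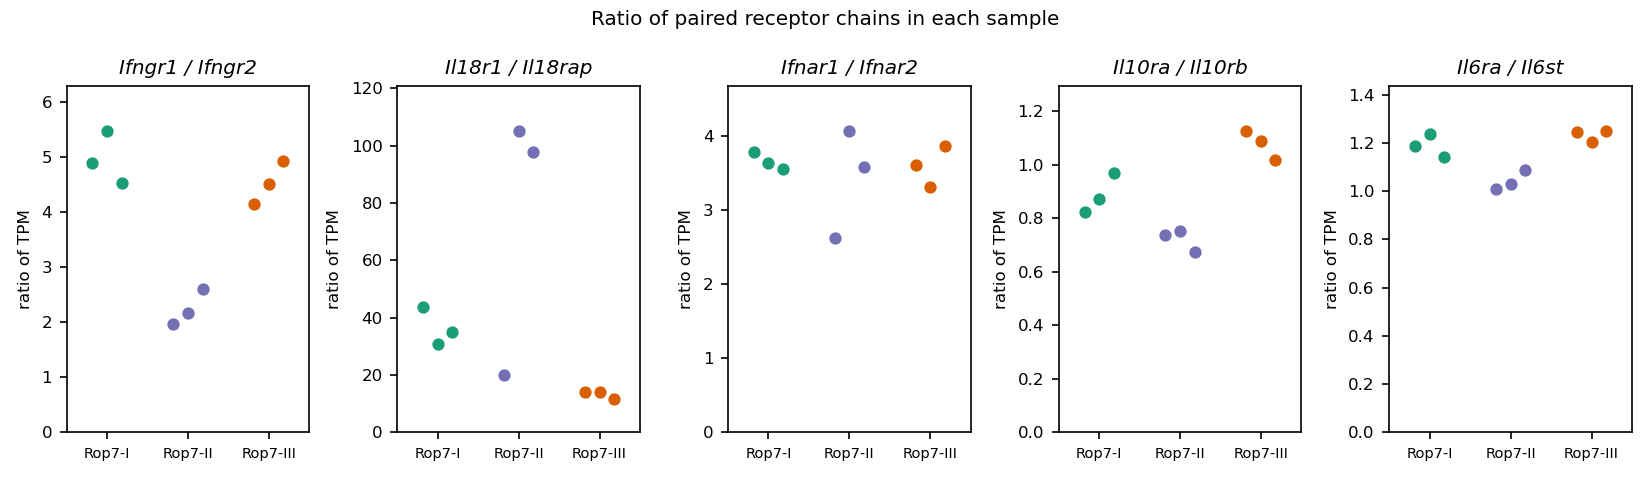
Ratio of TPM (linear axes from 0) of the first to the second chain of 5 receptor pairs in each replicate of the 3 clones. Ifngr1 over Ifngr2 is lowest in Rop7-II (1.97 to 2.60), Il10ra over Il10rb is above 1 in Rop7-III samples alone (1.02 to 1.13), and Il18r1 over Il18rap spans 19.9 to 105 within Rop7-II.

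The IL-18 receptor genes lie side by side on chromosome 1, with Il18r1 (chr1:40465552-40500854, plus strand) ending 14.5 kb before Il18rap (chr1:40515362-40551705, plus strand). Il18rap, the accessory chain needed for signalling, was low in all cells and highest in Rop7-III. It was at 1.36, 1.59 and 1.34 TPM in Rop7-I, at 1.27, 0.36 and 0.42 TPM in Rop7-II and at 2.88, 2.70 and 3.96 TPM in Rop7-III. The clones did not overlap, although Rop7-II replicate 1, the sample with the high B-cell and myeloid markers, lay just under Rop7-I and far above the other Rop7-II samples. Rop7-III was higher than Rop7-II by 1.34 on the log2(TPM + 1) scale (SE 0.21, limma adjusted p = 0.00213), and this scale understates the change of so low a gene, since the ratio of mean TPM was 4.65, and 8.15 without Rop7-II replicate 1. The differences of 0.77 between Rop7-III and Rop7-I (limma adjusted p = 0.0445) and 0.57 between Rop7-I and Rop7-II (limma adjusted p = 0.0999) were not called. Without Rop7-II replicate 1 they were 1.58 for Rop7-III against Rop7-II (limma adjusted p = 2.74e-04) and 0.80 for Rop7-I against Rop7-II (limma adjusted p = 0.0117), and Rop7-III against Rop7-I became called at the same 0.77 (limma adjusted p = 0.00886). The call between Rop7-III and Rop7-II missed the threshold in the fit that left out Rop7-III replicate 3 (limma adjusted p = 0.0110).

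Il18r1, the chain that binds IL-18, was far more abundant and had another order. Its level was 59.23, 49.07 and 47.11 TPM for Rop7-I, 25.22, 37.80 and 41.02 TPM in Rop7-II and 40.16, 38.33 and 46.13 TPM in Rop7-III. Rop7-I was above both other clones with no overlap, and Rop7-II and Rop7-III overlapped. No pair was called, with 0.59 between Rop7-I and Rop7-II (95% interval 0.22 to 0.96, limma adjusted p = 0.0373), -0.31 between Rop7-III and Rop7-I (interval -0.68 to 0.06, limma adjusted p = 0.259) and 0.28 between Rop7-III and Rop7-II (interval -0.09 to 0.65, limma adjusted p = 0.248). The lowest value was again Rop7-II replicate 1, without which the difference of Rop7-I from Rop7-II was 0.38 and that of Rop7-III from Rop7-II 0.07, neither called. The ratio of Il18r1 to Il18rap was 30.9 to 43.6 in Rop7-I, 11.7 to 14.2 in Rop7-III, and 19.9, 105 and 97.7 in the 3 Rop7-II samples. Transcripts of the binding chain exceeded those of the accessory chain throughout, by the least in Rop7-III.

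Among the neighbours of this pair, Il1rl2 (IL-36 receptor) had 0.42 more in Rop7-I than in Rop7-II on the log2 scale (limma adjusted p = 0.00800), with 19.54, 23.68 and 22.16 TPM against 15.80, 15.14 and 17.20 TPM and no overlap. This call was lost in 8 of the 9 fits that left out 1 sample (limma adjusted p from 0.0103 to 0.0336) and held only without Rop7-I replicate 1. Il1rl1, the IL-33 receptor gene that ends 0.1 kb before Il18r1, was at 2.09 TPM in Rop7-II replicate 1 and at 0.29 to 0.66 TPM in the other 8 samples. Of the 9 genes of the cluster, 5 were tested, and Il18rap was the 1 called between Rop7-III and Rop7-II, where 12.3% of all tested genes were called.

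The IL-12 receptor was hardly detected. Il12rb2 (chr6:67291318-67376188, minus strand), the chain that recruits STAT4, was at 1.96, 1.49 and 2.18 TPM in Rop7-I, at 1.76, 1.66 and 1.24 TPM in Rop7-II and at 1.74, 1.70 and 1.73 TPM in Rop7-III. The clones overlapped in all pairs and no pair was called (limma adjusted p from 0.465 to 0.793), with 95% intervals that reach from -0.40 to 0.50 over the 3 pairs. Its annotation overlaps Serbp1, which is also in the table, so reads of the shared stretch cannot be told apart without strand. Il12rb1 (chr8:70808449-70821424, plus strand), the chain shared with the IL-23 receptor, had 0.64, 0.44 and 0.34 TPM for Rop7-I, 0.30, 0.28 and 0.41 TPM in Rop7-II and 0.57, 0.65 and 0.82 TPM in Rop7-III. Rop7-III and Rop7-II did not overlap, but with no filter on low values the difference of 0.34 on the log2(TPM + 1) scale had a limma adjusted p of 0.0399 and was not called. TPM keep no depth, so the reads behind values this low could not be counted here.

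The type I interferon receptor genes and Ifngr2 lie within 192.8 kb on chromosome 16 together with Il10rb. Ifnar1 (chr16:91485238-91507441, plus strand), the chain that binds TYK2, was at 109.17, 103.13 and 101.84 TPM in Rop7-I, at 103.34, 104.15 and 106.32 TPM in Rop7-II and at 109.98, 112.55 and 112.78 TPM in Rop7-III. Rop7-III lay above the other 6 samples by a narrow margin, with 0.09 over each clone (95% interval 0.02 to 0.17 in both cases, limma adjusted p = 0.0698 against Rop7-II and 0.104 against Rop7-I), and Rop7-I and Rop7-II differed by 0.00 (interval -0.08 to 0.08). Ifnar2 (chr16:91372783-91405589, plus strand), the chain with the higher affinity for interferon, was at 28.85, 28.37 and 28.64 TPM in Rop7-I, at 39.42, 25.63 and 29.70 TPM in Rop7-II and at 30.44, 33.95 and 29.21 TPM in Rop7-III. The highest value belonged to Rop7-II replicate 1, Rop7-II overlapped both other clones and no pair was called (limma adjusted p from 0.591 to 0.994). Without that sample Rop7-III differed from Rop7-II by 0.17 (limma adjusted p = 0.156) and Rop7-I from Rop7-II by 0.051 (limma adjusted p = 0.698). The part of the B-cell and myeloid markers of that sample in its Ifnar2, Il18rap, Il18r1 and Il6ra values was not tested. Of the 9 genes of this cluster 8 were tested, and Il10rb was the 1 called, between Rop7-III and Rop7-II, a share near the 12.3% of all tested genes called in that pair.

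Counted over the 9 tested chains, Rop7-III against Rop7-II gave 4 higher (Ifngr1, Il10ra, Il6ra and Il18rap) and 0 lower, where 12.3% of the 12115 tested genes were called, 6.39% as higher and 5.89% as lower. Rop7-III against Rop7-I gave 1 higher (Il10ra) and 0 lower with 4.85% of all tested genes called (2.58% higher, 2.28% lower), and Rop7-I against Rop7-II gave 1 higher (Ifngr1) and 0 lower with 7.53% called (3.67% higher, 3.85% lower). With a difference of at least 2-fold on the log2(TPM + 1) scale asked for as well, 1 chain (Il18rap), 0 and 1 (Ifngr1) were called in the 3 pairs in that order, beside 1.7%, 1.06% and 0.949% of tested genes. The F test across the 3 clones called the same 4 chains as Rop7-III against Rop7-II, with 14.1% of tested genes called. The median difference of the 9 chains was 0.28, 0.09 and 0.24 on the log2 scale in the 3 pairs in that order, beside -0.02, -0.00 and -0.01 for all tested genes. Replicates did not overlap for 5, 7 and 5 of the 9 chains, beside 40.7%, 38.2% and 35% of tested genes. Without Rop7-II replicate 1 the counts of called chains were 4, 3 and 1, beside 11%, 6.97% and 7.34% of all genes tested in that fit.

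**Figure D4:**
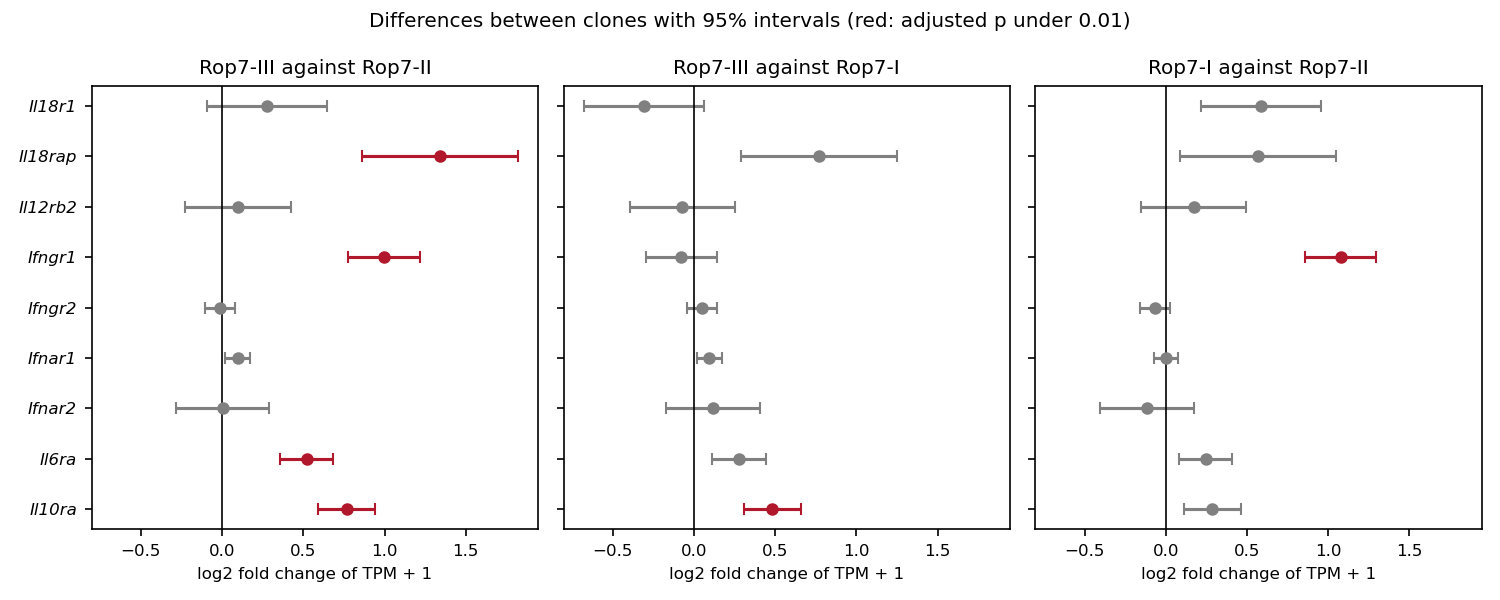
Difference in log2(TPM + 1) between clones for the 9 tested chains with 95% intervals from limma, red where adjusted p was under 0.01. Rop7-III exceeds Rop7-II in Il18rap (1.34), Ifngr1 (1.00), Il10ra (0.77) and Il6ra (0.52), while Ifngr1 is the 1 chain called between Rop7-I and Rop7-II (1.08) and Il10ra the 1 called between Rop7-III and Rop7-I (0.48).

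For the 4 chains called by the F test, the genes with the most similar course over the 9 samples were sought by Pearson's r on log2(TPM + 1), among 9497 or 9498 genes with a mean of at least 5 TPM. Ifngr1 ran most closely with Smad5 (r = 0.988), a BMP signalling factor, then with Stt3b (0.987) and Agps (0.983). Smad5 was at 33.81 to 41.39 TPM in Rop7-II and at 57.64 to 62.28 TPM in the other 6 samples. Il10ra ran with Ccp110 (0.978), Arhgap18 (0.973) and Ints12 (0.973), and Il6ra with Selt (0.987), Ssh2 (0.986) and Habp4 (0.984). Il18rap ran with Gpr174 (0.988), a G-protein-coupled receptor of lymphocytes at 16.64 to 21.11 TPM in Rop7-III and at 8.96 to 15.13 TPM elsewhere, then with Tmem243 (0.981) and Zfand5 (0.980). The 9 points are 3 clones in triplicate, and the r values describe these samples only.

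Beyond the chains themselves, 58 genes of the same pathways were listed by role and 46 of them were tested. Between Rop7-III and Rop7-II 6 were higher and 4 lower, beside 12.3% of all tested genes called. Between Rop7-III and Rop7-I 0 were higher and 7 lower, beside 4.85% of all tested genes called, and between Rop7-I and Rop7-II 9 were higher and 0 lower, beside 7.53%. Without Rop7-II replicate 1, 41 were tested and the counts were 5 higher and 7 lower, 2 higher and 11 lower, and 7 higher and 0 lower. Of all genes tested in that fit, 11%, 6.97% and 7.34% were called in the 3 pairs in that order. The medians of the 46 were -0.05, -0.12 and 0.06, beside -0.02, -0.00 and -0.01 for all tested genes. Of the 46, 17 were called in at least 1 pair, beside 16.6% of all tested genes. By role these were 4 of the other receptor chains, 0 ligands, 1 IL-18 signalling component, 4 JAK or STAT factors, 2 inhibitors and 6 target genes.

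Ligand transcripts were scarce. Of the 11 genes listed, which include the secreted IL-18 binding protein, 5 were tested. None was called in any pair by limma at an adjusted p under 0.01, beside 16.6% of all tested genes called in at least 1. Without Rop7-II replicate 1, 2 were tested and 1 was called lower in Rop7-III than in Rop7-I, beside 6.97% of all tested genes called. Ifng was at 0 to 0.16 TPM in the 9 samples, and Ifnb1, Il6, Il12b, Il23a and Il27 stayed at or under 1 TPM, with Ifnb1 listed at 0 in every sample. Il18bp, that binding protein, ran from 9.39 to 13.36 TPM. Il18 reached 1.63 TPM in Rop7-II replicate 1, the sample with high myeloid markers, and 0.52 TPM or less elsewhere. Il12a reached 4.66 TPM in the same sample and 0.16 to 2.58 TPM elsewhere.

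The kinases that serve these receptors were called in no pair, beside 16.6% of all tested genes called in at least 1. Jak1 ran from 934 to 1080 TPM, Jak2 from 97.77 to 111.83 TPM and Tyk2 from 59.04 to 69.33 TPM over the 9 samples. Among the STAT factors, Stat4, which carries the IL-12 signal, was at 167.52, 188.35 and 171.75 TPM in Rop7-I, at 90.23, 114.11 and 109.74 TPM in Rop7-II and at 202.98, 196.22 and 201.25 TPM in Rop7-III. The clones did not overlap, and Rop7-II was the lowest. For Stat4, Rop7-III exceeded Rop7-II by 0.94 (SE 0.08, limma adjusted p = 6.63e-05) and Rop7-I exceeded Rop7-II by 0.75 (SE 0.08, limma adjusted p = 3.78e-04).

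Gbp2, Irf1 and Irgm1, listed as interferon targets, had their highest clone mean in Rop7-I and their lowest in Rop7-III, an order other than that of Ifngr1. Gbp2, an interferon-induced GTPase, was at 93.05, 91.19 and 77.49 TPM in Rop7-I, at 61.19, 65.97 and 65.09 TPM in Rop7-II and at 48.59, 45.48 and 45.77 TPM in Rop7-III, with no overlap between clones. Rop7-III was lower than Rop7-I (-0.89, limma adjusted p = 7.85e-05) and lower than Rop7-II (-0.45, limma adjusted p = 0.00154), and Rop7-I was higher than Rop7-II (0.44, limma adjusted p = 0.00279). Irf1, an interferon-induced transcription factor, and Irgm1, an immunity-related GTPase, were both lower in Rop7-III when set against Rop7-I (-0.50 and -0.76, limma adjusted p = 4.73e-04 and 0.00144). Irf9, a transcription factor of type I interferon signalling, was also lower in that pair (-0.37, limma adjusted p = 0.00648), a call lost without any 1 of the Rop7-I or Rop7-III replicates (limma adjusted p from 0.0180 to 0.0303). Of the 8 listed downstream targets tested, 4 were lower and 0 higher for Rop7-III against Rop7-I, beside 2.28% of all tested genes lower. For Rop7-I against Rop7-II 4 were higher and 0 lower, beside 3.67% of all tested genes higher. These 4 were Gbp2, Irf1, Eomes and Furin, of which the last 2 are not among the interferon targets above. Irgm1 was not called in that pair (limma adjusted p = 0.0553). The B-cell markers also had lower means in Rop7-III than in Rop7-I, and their part in the first of these counts was not tested.

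Eomes and Furin, also listed as downstream targets, were lowest in Rop7-II. Eomes, a T-box factor of memory-type CD8 T cells, was at 12.35, 17.46 and 12.59 TPM in Rop7-I, at 1.49, 2.45 and 3.07 TPM in Rop7-II and at 7.62, 7.55 and 5.30 TPM in Rop7-III. The clones did not overlap, and Rop7-I exceeded Rop7-II by 2.19 (limma adjusted p = 1.88e-04) and Rop7-III exceeded Rop7-II by 1.24 (limma adjusted p = 0.00262). The second of these missed the threshold without Rop7-III replicate 1 or 2 (limma adjusted p = 0.0138 and 0.0134). Furin, a proprotein convertase that IL-12 is known to induce, was higher than in Rop7-II by 0.40 in Rop7-III (limma adjusted p = 2.71e-04) and by 0.29 in Rop7-I (limma adjusted p = 0.00227). The last of these was lost without Rop7-I replicate 1 or 2 (limma adjusted p = 0.0112 and 0.0128), as was the 0.44 of Gbp2 (limma adjusted p = 0.0121 and 0.0157).

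The inhibitors SOCS1 and SOCS3, which feed back on JAK kinases and on gp130, went in opposite directions. Socs1 was at 86.93, 98.19 and 89.83 TPM in Rop7-I, at 73.14, 64.36 and 109.49 TPM in Rop7-II and at 138.22, 145.45 and 147.03 TPM in Rop7-III. Socs3 was at 184.15, 133.65 and 119.17 TPM in Rop7-I, at 161.71, 146.55 and 167.82 TPM in Rop7-II and at 73.65, 78.84 and 62.47 TPM in Rop7-III. In both, all 3 Rop7-III samples lay apart from the other 6. Rop7-III was higher than Rop7-II in Socs1 (0.83, limma adjusted p = 0.00495) and lower in Socs3 (-1.14, limma adjusted p = 6.39e-04). Against Rop7-I the difference in Socs3 was -0.995 (limma adjusted p = 0.00278), whereas the 0.64 in Socs1 was not called (limma adjusted p = 0.0284). The call of Socs1 was lost without Rop7-II replicate 1 or any 1 of the Rop7-III replicates (limma adjusted p from 0.0131 to 0.0206), and that of Socs3 against Rop7-I without Rop7-III replicate 1 or 3 (limma adjusted p = 0.0112 and 0.0141). Of the 9 genes listed as inhibitors and tested, these were the 2 called in any pair, beside 16.6% of all tested genes. The list also holds Isg15, an interferon-stimulated gene, which was called in no pair (limma adjusted p from 0.0145 to 0.900). Without Rop7-II replicate 1, 8 of the 9 were tested, and 3 were lower and 0 higher in Rop7-III against each other clone. In that fit 11% of all tested genes were called against Rop7-II and 6.97% against Rop7-I.

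The remaining calls were single genes. Il27ra, the IL-27 receptor, had less in Rop7-III than in Rop7-II (-0.29, limma adjusted p = 0.00262), with 375.21, 393.96 and 386.67 TPM against 456.57, 462.20 and 490.69 TPM, a call lost without Rop7-III replicate 1 or 3 (limma adjusted p = 0.0139 and 0.0109). Stat3 had more in Rop7-I than in Rop7-II (0.40, limma adjusted p = 0.00974), with 117.75 to 146.62 TPM against 92.42 to 99.87 TPM, and its call was lost in each of the 9 fits that left out 1 sample (limma adjusted p from 0.0115 to 0.0248). Irak4, a kinase downstream of the IL-18 receptor, was higher in the same pair (0.31, limma adjusted p = 0.00332), with 28.38 to 30.26 TPM against 22.03 to 24.29 TPM, a call lost without Rop7-I replicate 1 or 2 (limma adjusted p = 0.0159 and 0.0133). None of the other 9 IL-18 signalling genes tested was called in any pair, beside 16.6% of all tested genes called in at least 1. The adaptor gene Myd88, at 53.92 to 66.57 TPM, was among them.

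**Figure D5:**
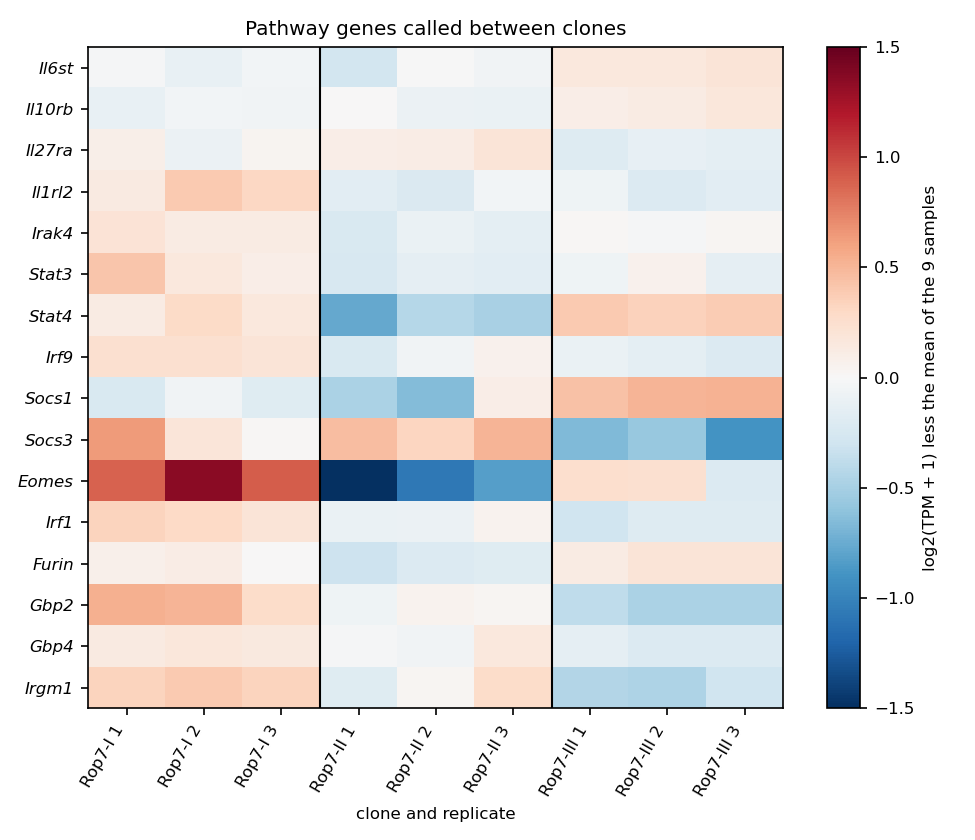
Level of 16 of the 17 pathway genes called in at least 1 pair of clones, in each of the 9 samples, as log2(TPM + 1) less the mean of the 9 samples (red above, blue below). Stat4 is lowest in Rop7-II (90.23 to 114.11 TPM), Gbp2 is highest in Rop7-I (77.49 to 93.05 TPM), and Socs3 is lowest in Rop7-III (62.47 to 78.84 TPM).

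The chains were also read beside markers of memory-like CD8 T cells, which are known for high IL-18 receptor. The 14 markers summed to 603.4 to 613.8 TPM in Rop7-I, to 471.2 to 562.1 TPM in Rop7-II and to 635 to 807.1 TPM in Rop7-III, with no overlap between clones. Klrd1 alone made up 290.96 to 463.60 TPM of the Rop7-III sums. Between Rop7-III and Rop7-II 5 of the 10 tested markers were higher and 0 lower, beside 6.39% of all tested genes higher in that pair. Between Rop7-III and Rop7-I 1 was higher (Ccl5) and 0 lower, beside 2.58% of all tested genes higher. Between Rop7-I and Rop7-II 1 was higher (Eomes) and 0 lower, beside 3.67% higher. Without Rop7-II replicate 1 the counts were 6 higher and 0 lower, 2 higher and 1 lower, and 3 higher and 0 lower. Of all genes tested in that fit, 11%, 6.97% and 7.34% were called in these pairs. Named after their values were seen, the 5 higher in Rop7-III than Rop7-II were Eomes, the chemokine receptor gene Cxcr3 (2.59 to 6.74 TPM against 0.08 to 0.86 TPM), the chemokine gene Ccl5 (26.39 to 30.36 TPM against 2.42 to 6.51 TPM), and the NK-type receptor genes Klrk1 (14.78 to 34.31 TPM against 2.66 to 5.61 TPM) and Klrd1 (290.96 to 463.60 TPM against 148.49 to 208.88 TPM). Of the other 5, 3 had lower means in Rop7-III than in Rop7-II, none called, with Nkg7 at 166.09 to 195.98 TPM against 206.29 to 248.44 TPM (-0.28, limma adjusted p = 0.0348). Tbx21, the T-box factor of effector cells, was at 0 to 0.28 TPM in every sample. The part of memory-like cells in the differences of the receptor chains was not tested.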

How the data were processed

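RNA of sorted CD8 T cells (3 Rop7 lines, 3 samples per line, 9 in all) was sequenced by the authors as single-end reads without strand. The authors counted reads per RefSeq gene of mm10 with RSEM 1.2.11 and deposited TPM per gene and sample, of which 7126 of 24060 genes were 0 in every sample. They tested counts with DESeq2 1.8.1, which TPM does not allow, and TPM keep no depth, so counting error could not be computed.

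Here log2(TPM + 1) of the 12115 genes above 1 TPM in at least 1 sample was fitted to all 9 samples with limma 3.58.1 in R 4.3.3, letting the spread depend on mean expression. Tests were two-sided. Benjamini-Hochberg adjustment ran over these genes within each pair of clones, and a call needed an adjusted p under 0.01, the false discovery rate of the study. Intervals are 95% and per gene. The fit was tested on simulated data. Positions are GENCODE vM21 on GRCm38.

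The 10 chains and all gene lists were chosen with earlier results of these data known. All 10 chains were named, and of the pathway lists the called genes, up to 3 per list and pair by smallest adjusted p, with likeness taken for the 4 chains called by the F test. Of the called pathway genes, 1 is counted but not reported here. Alternatives were other pseudocounts, filters, scalings, spread models, thresholds, a replicate block and each sample left out in turn. Replicate numbers were not taken as pairs.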

Additional observations from a re-analysis of the deposited data

How the results depend on the processing

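Ifngr1 in both pairs with Rop7-II, and Il10ra and Il6ra between Rop7-III and Rop7-II, kept direction and call in all 19 alternatives, with log2 differences of 0.94 to 1.10 and 1.00 to 1.18 for Ifngr1, 0.70 to 0.82 for Il10ra and 0.42 to 0.58 for Il6ra. Il18rap between these clones kept its call in 16 of 18 alternatives, lost it with only the 2 clones compared (adjusted p = 0.0108) and without Rop7-III replicate 3 (adjusted p = 0.0110), and reached 2.23 with a pseudocount of 0.1. Il10ra between Rop7-III and Rop7-I lost its call in 8 of 19. The causes were not tested.

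Called chains numbered 4 between Rop7-III and Rop7-II, and 1 with at least a 2-fold difference. Between Rop7-III and Rop7-I the 1 called became 0 with no filter on low values, no trend of the spread, the replicate block or a 2-fold minimum, 2 with sample weights, 3 with only the clones compared and 3 at an adjusted p under 0.05, and 0 to 3 with 1 sample left out. Between Rop7-I and Rop7-II the 1 became 4 at an adjusted p under 0.05. The F test called 2 to 4 chains with 1 sample left out, with 2 without Rop7-III replicate 1 or 3.

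Pathway genes called between Rop7-III and Rop7-II were 10, against 6 with no trend, 6 with only the clones compared, 19 at an adjusted p under 0.05, 2 at 2-fold and 4 to 12 with 1 sample left out. Between Rop7-III and Rop7-I they were 7, against 14 with sample weights, 14 with only the clones compared, 15 at 0.05, 1 at 2-fold and 4 to 13 with 1 sample left out. Between Rop7-I and Rop7-II they were 9, against 5 with the replicate block, 3 with only the clones compared, 1 at 2-fold and 3 to 11 with 1 sample left out.

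All genes called between Rop7-III and Rop7-II were 1488, against 939 with only the clones compared, 3041 at 0.05, 206 at 2-fold and 834 to 1315 with 1 sample left out. Between Rop7-III and Rop7-I they were 588, against 1062 with sample weights, 373 with the replicate block, 926 with only the clones compared, 1586 at 0.05, 128 at 2-fold and 258 to 830. Between Rop7-I and Rop7-II they were 912, against 600 with no trend, 433 with only the clones compared, 2163 at 0.05, 115 at 2-fold and 416 to 875.

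Differences near 0 changed sign with none called. These were Ifngr2 between Rop7-III and Rop7-II (0.0036 with sample weights, -0.048 to 0.024 with 1 sample left out), Ifnar2 in that pair (-0.13 to 0.17 with 1 sample left out) and between Rop7-I and Rop7-II (-0.25 to 0.051), Il12rb2 between Rop7-III and Rop7-I (-0.17 to 0.0045) and Ifnar1 between Rop7-I and Rop7-II (-0.0051 with a common median, -0.029 to 0.021 with 1 sample left out). Same-numbered samples of different clones deviated with r from -0.388 to 0.106 over 9 pairs. Differently numbered ones deviated with r from -0.177 to 0.324 over 18 pairs. With 3 samples per clone that also differ in markers of other cells, these values cannot settle whether the numbers pair the samples. Other scalings left the median of all genes between -0.01 and 0.01. TPM keep no depth, so no counting error was computed for the low chains Il18rap, Il12rb1 and Il12rb2.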
